A study of Rattus norvegicus with 24 samples.

Results

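The mature microRNAs rno-miR-326-3p and rno-miR-328a-3p were followed through the serum of male Wistar Kyoto rats on either of 2 diets, exposed to ozone or to filtered air. They were taken by name from the count table and the normalized table, as 2 of the 753 mature miRNA names listed there. They were chosen by their lower counts on the fish oil diet, so each of their own diet differences below describes that choice and is given without a p-value. Differences between ozone and air were not used to pick them, and these were tested.

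The 4 groups were as follows. Rats on fish oil with ozone (5 libraries) had a diet with 6% fish oil by weight and breathed 0.8 ppm ozone, and rats on fish oil in air (6 libraries) had the same diet and breathed filtered air. Rats on the normal diet with ozone (6 libraries) and on the normal diet in air (6 libraries) were given ordinary rodent chow. Diets started at 4 weeks of age and ran for 8 weeks, after which ozone or air was given for 4 h on each of 2 days. The labels list a further rat on fish oil with ozone, replicate 2, which was not analysed here. No diet enriched in another oil was analysed here, so fish oil cannot be told apart from added oil of any kind. Serum was drawn from the abdominal aorta, and it carries miRNAs released by blood cells, platelets, liver, vessels and other organs.

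A miRNA is loaded into an Argonaute protein and finds its mRNA targets mainly through its seed, bases 2 to 8 counted from its 5′ end. MiR-326 is best known from the nervous system, where in mouse and human cells it restrains Smoothened, the signal transducer of the Hedgehog pathway, and from T cells of both species, where it favours the Th17 fate by lowering ETS1. MiR-328 is abundant in brain and heart. It is known to lower the beta-secretase BACE1 in rodents, the drug efflux pump ABCG2 in human cells and cardiac L-type calcium channel subunits in dogs and mice.

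The sequences below show the seed that miR-326-3p shares, the arm of its hairpin that was counted, and the b-form of miR-328. They come from the RefSeq annotation of the rat assembly GRCr8, which held 1 of the 2 members (miR-326-3p), all 3 loci lie on its plus strand, and the capitals mark bases 2 to 8.
miR-326-3p: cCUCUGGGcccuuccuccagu
miR-330-5p: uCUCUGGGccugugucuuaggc
miR-328b-3p: cUGGCCCUcucugcccua
The hairpin of miR-326 follows, with the mature 3p arm in capitals.
Mir326 hairpin: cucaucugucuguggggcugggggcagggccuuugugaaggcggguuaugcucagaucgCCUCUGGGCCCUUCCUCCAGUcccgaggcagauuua

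Among the 693 mature rat sequences in that annotation, the seed CUCUGGG was present in 2, miR-326-3p and miR-330-5p. MiR-326-3p and miR-328b-3p share no seed; the longest run of bases common to both is GGCCCU, which spans bases 7 to 12 of miR-326-3p and bases 3 to 8 of miR-328b-3p. Both are rich in G and C, at 66.7% each, against a median of 45.5% over the 125 tested miRNAs with a sequence. Among those 125, miR-326-3p had the highest G+C content.

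In the deposited table, on the rat build rn5, miR-326-3p has 1 locus on chromosome 1 at 170722130 to 170722151 and miR-328a-3p has 1 locus on chromosome 19 at 48128936 to 48128958. In the RefSeq annotation of GRCr8 the hairpin of miR-326 lies within the span of Arrb1, which encodes beta-arrestin 1, and that of miR-328a lies within the span of Elmo3, an engulfment and cell motility gene. The table does not say whether the hairpins are intronic or on the same strand as these genes. For both, only the 3p arm was seen: miR-326-5p and miR-328a-5p had 0 counts in all 23 libraries. MiR-328b-3p, on chromosome 14 at 45138496 to 45138514, had 99 counts in all, and miR-330-5p, the other miRNA with the seed of miR-326-3p, had 8.

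The members differ widely in abundance. MiR-328a-3p had 13545 counts over the 23 libraries, with 38 to 1649 per library, and ranked 21 of the 136 tested miRNAs by mean level. MiR-326-3p had 180 counts, with 0 to 22 per library, and ranked last of the 136. Levels below are CPM, miRNA counts scaled to a common miRNA total per library with TMM (trimmed mean of M values), unless RPM is named. The miRNA total per library was 23276 to 94264 counts. A count of 3, the limit that a count of 0 allows, equals 28.3 to 117 CPM, and like all counting intervals here it covers counting error only. The totals were lower on fish oil, at means of 33302 counts in ozone and 37262 in air, against 63357 and 65638 on the normal diet in ozone and air.

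MiR-328a-3p was 0.371 times as high on fish oil as on the normal diet when both exposures were averaged (log2 difference −1.43, SE 0.27). Its level in the 5 libraries on fish oil with ozone was 7172, 1249, 4412, 3695 and 7709.8 CPM. On fish oil in air it ran from 3251 through a median of 5981 to 10975 CPM. On the normal diet it ran from 7539 through 11904 to 26253 CPM in ozone, and from 8290.0 through 15461 to 24408 CPM in air. The ranges of the diets overlapped: 3 of the 11 fish oil libraries lay above the lowest normal diet library, and 4 of the 12 normal diet libraries lay below the highest fish oil library. Complete separation, with every fish oil library below every normal diet library, was seen for 1.47% of the tested miRNAs in CPM. All 11 fish oil libraries lay below the mean of the normal diet libraries for miR-328a-3p. This looser rule was not counted over the other tested miRNAs, so the 1.47% is no background for it.

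By group, miR-328a-3p averaged 4848 ± 2649 CPM on fish oil with ozone (SD, n = 5) and 15038 ± 7602 CPM on the normal diet with ozone (n = 6), a log2 difference of −1.63 (SE 0.40). In air the means were 6555 ± 2899 CPM on fish oil and 15390.5 ± 5668 CPM on the normal diet (n = 6 each), a log2 difference of −1.23 (SE 0.37). Without fish oil ozone replicate 3, the library with the lowest miR-328a-3p of all, the log2 difference in ozone was −1.39. From highest to lowest the group means ran normal diet air, normal diet ozone, fish oil air and fish oil ozone. The neighbours within each diet differed by less than 1 SD of either group.

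MiR-326-3p had few reads on either diet and fewest on fish oil, where its fitted level averaged over exposures was 0.334 times that on the normal diet (log2 difference −1.58, SE 0.43). On fish oil with ozone its counts were 0, 0, 0, 2 and 7. On fish oil in air they were 1 to 4 (median 3.5). Normal diet counts were 5 to 22 (median 17) with ozone and 4 to 15 (median 11.5) in air. A count of 3 or less was seen in 7 of the 11 fish oil libraries and in 0 of the 12 normal diet libraries. These are raw counts, and miRNA totals were lower on fish oil. This split was not counted over the other tested miRNAs. In CPM the diets overlapped: 4 of the 11 fish oil libraries lay above the lowest normal diet library. Of the 12 normal diet libraries, 9 lay below the highest fish oil library. Summed over libraries, 9 of 166509 miRNA counts came from miR-326-3p on fish oil with ozone (exact 95% Poisson interval of the count 4.12 to 17.1) and 18 of 223571 on fish oil in air (10.7 to 28.4). On the normal diet the sums were 87 of 380143 in ozone (69.7 to 107) and 66 of 393828 in air (51.0 to 84.0).

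As levels, miR-326-3p averaged 58.1 ± 92.7 CPM on fish oil with ozone (SD, n = 5) and 231 ± 102 CPM on the normal diet with ozone (n = 6), a log2 difference of −2.02 (SE 0.65). In air it averaged 79.3 ± 37.2 CPM on fish oil and 171 ± 33.8 CPM on the normal diet (n = 6 each), a log2 difference of −1.14 (SE 0.57). Both fish oil means lie within the range of CPM that a count of 3 gives. Fish oil ozone replicate 6 alone holds 7 of the 9 counts of its group: without it the log2 difference in ozone was −3.72, and that averaged over exposures −2.43 in place of −1.58. The 3 libraries at 0 counts allow up to 92.3, 98.6 and 67.5 CPM. Normal diet means lay in the order ozone above air, fish oil means in the order air above ozone, and neither step exceeded the larger of the SDs.

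**Figure D1:**
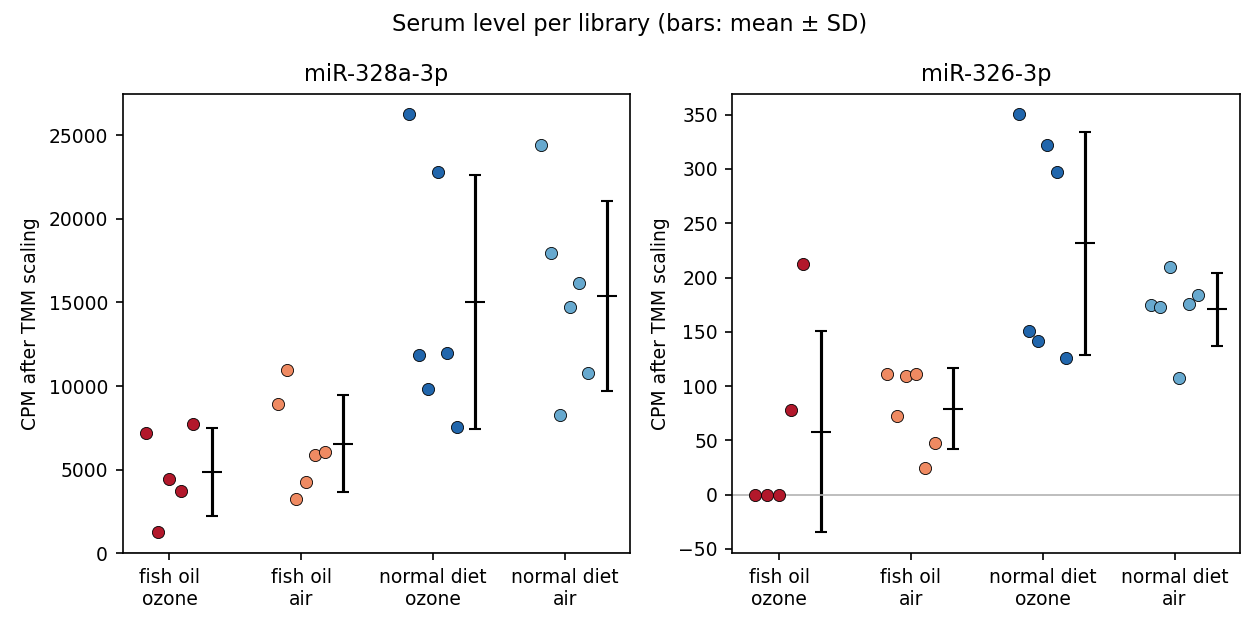
Level of miR-328a-3p (left) and miR-326-3p (right) in each of the 23 serum libraries, in CPM after TMM scaling; points are rats, and bars give the mean ± SD of each group. Fish oil libraries reach 10975 CPM of miR-328a-3p against 26253 on the normal diet, and 3 libraries on fish oil with ozone hold no miR-326-3p.

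Both members were counted as lower on fish oil averaged over exposures (edgeR quasi-likelihood, Benjamini-Hochberg over 136 miRNAs), where 36.8% of tested miRNAs were called, 16.9% lower and 19.9% higher; this contrast chose them, and nothing is read from it. The share called lower was 10.3% for fish oil in ozone and 5.15% for fish oil in air. With the read total behind the RPM as library size, 1 miRNA was called higher and 70 lower, in place of 27 higher and 23 lower. Their log2 differences were the lowest (miR-326-3p) and the third lowest (miR-328a-3p) of all 136, whose median was +0.06. With limma on log2(RPM + 1) miR-326-3p stood at 21 of 136 and miR-328a-3p at 2, and with no low-count filter they stood at 15 and 22 of 440.

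The authors' RPM, which divides by a read total far larger than the miRNA total, separated the diets further. MiR-328a-3p was at 42.7, 16.8, 49.9, 20.5 and 41.5 RPM on fish oil with ozone, and at 19.8 to 63.3 RPM on fish oil in air, against 123 to 268 RPM on the normal diet in ozone and 113 to 255 RPM in air. No fish oil library reached the lowest normal diet library. Such complete separation was seen for 3.68% of the tested miRNAs in RPM, for 15.4% in the ozone groups alone and for 10.3% in the air groups alone. MiR-326-3p was listed at the table's offset in 3 libraries on fish oil with ozone and reached 1.14 RPM there and 1.23 RPM on fish oil in air, against 1.57 to 6.65 RPM and 0.828 to 5.66 RPM on the normal diet in ozone and air. Its ranges did not overlap in ozone, and overlapped in air.

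**Figure D2:**
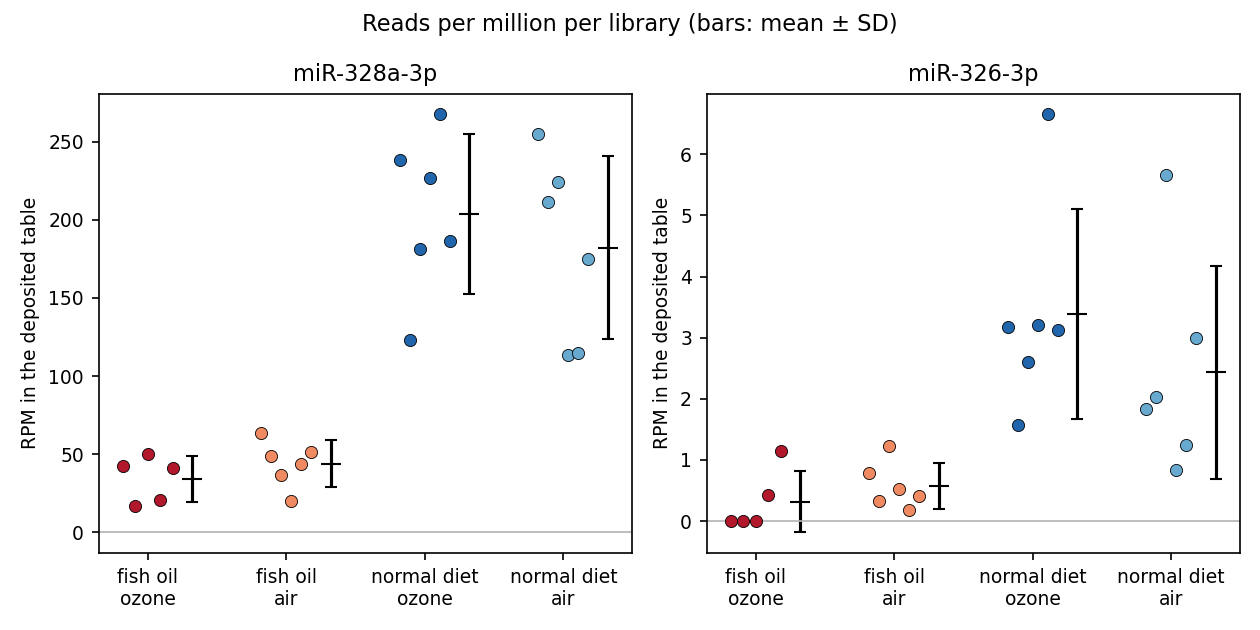
RPM of miR-328a-3p (left) and miR-326-3p (right) in each library, as deposited by the authors; points are rats, and bars give the mean ± SD of each group. All 11 fish oil libraries lie at or below 63.3 RPM of miR-328a-3p, and all 12 normal diet libraries lie at or above 113.

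Scaled by the read total that the RPM imply in place of the miRNA counts, the log2 difference averaged over exposures was −2.31 (SE 0.27) for miR-328a-3p and −2.59 (SE 0.51) for miR-326-3p. On that scale the median of all tested miRNAs was −0.87. Set against the median of all tested miRNAs, miR-328a-3p stood at −1.49 with TMM and −1.44 with the implied read total, and miR-326-3p stood at −1.64 and −1.72. A change of library size moves all miRNAs of a library alike, so these distances are nearly fixed by construction. With limma on log2(RPM + 1), where the pseudocount compresses low values, miR-326-3p stood at −0.64 from the median and miR-328a-3p at −1.59.

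The members' own ratio needs no scaling between libraries. From counts summed over each group, each count of miR-326-3p met 90.7 counts of miR-328a-3p on fish oil with ozone and 84.2 on fish oil in air, against 64.5 and 84.9 on the normal diet with ozone and in air. The value on fish oil with ozone rests on replicate 6: without it there were 562 counts of miR-328a-3p and 2 of miR-326-3p, too few for a ratio. On the log2 CPM scale the gap between the members was 5.74 ± 0.90 on fish oil in air, against 5.74 ± 0.35 and 6.13 ± 0.67 on the normal diet in ozone and air. The prior count of 2 adds most to low counts. Of these groups it therefore narrows the gap most on fish oil in air, where miR-326-3p had 1 to 4 counts. No mean is given for fish oil with ozone, where 3 of the 5 libraries have no count of miR-326-3p and the gap is only a lower bound. The gap on the normal diet was 0.39 smaller in ozone than in air, within the SD of the air group and slightly beyond that of the ozone group.

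Neither member passed the threshold for ozone on either diet. On fish oil, miR-328a-3p averaged 4848 ± 2649 CPM in ozone and 6555 ± 2899 CPM in air, a log2 difference of −0.43 (SE 0.39, edgeR adjusted p = 0.836; lower than the air mean in 3 of 5 libraries). An approximate 95% interval for it is −1.20 to 0.34, and without fish oil ozone replicate 3 it was −0.19. On the normal diet it averaged 15038 ± 7602 CPM in ozone and 15390.5 ± 5668 CPM in air, a log2 difference of −0.03 (SE 0.37, edgeR adjusted p = 0.980, interval −0.75 to 0.68). The sign of this near-zero difference depended on the scaling (+0.02 with miRNA totals, +0.16 with the implied read total). Averaged over diets it was −0.23 (SE 0.27, edgeR adjusted p = 0.915).

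For miR-326-3p, ozone gave 58.1 ± 92.7 CPM against 79.3 ± 37.2 CPM in air on fish oil, a log2 difference of −0.46 (SE 0.74, edgeR adjusted p = 0.911, interval −1.92 to 1.002). The size depended on the tool: it was −1.21 with voom and −1.36 with limma on log2(RPM + 0.1), neither past the threshold. With the fish oil groups alone, miR-326-3p missed the low-count filter. Its test on fish oil therefore depended on normal diet libraries, where its counts were higher. Of the 5 ozone libraries, 3 had 0 counts and lay below every air library. They allow up to 92.3, 98.6 and 67.5 CPM, within the air range of 24.7 to 111 CPM, so their order is not resolved. Fish oil ozone replicate 6 lay above every air library, and without that replicate the difference was −2.15 (edgeR adjusted p = 0.242). On the normal diet the means were 231 ± 102 CPM in ozone and 171 ± 33.8 CPM in air, a log2 difference of 0.42 (SE 0.48, edgeR adjusted p = 0.939, interval −0.51 to 1.35), and 0.21 without normal diet ozone replicate 1. Normal diet ozone replicates 1, 4 and 5 lay at 350.3, 322 and 297 CPM, above every air library, and the other 3 lay within the air range. Averaged over diets the difference was −0.02 (SE 0.34, edgeR adjusted p = 0.985), and −0.87 without fish oil ozone replicate 6. EdgeR called 0.735% of miRNAs in that comparison (1, miR-375-3p) and 2.94% had an unadjusted p below 0.05.

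Whether ozone acted differently on the diets was tested as the interaction, which uses the libraries that also chose the members. It was −0.40 (SE 0.54, edgeR adjusted p = 0.947) for miR-328a-3p and −0.88 (SE 0.89, edgeR adjusted p = 0.916) for miR-326-3p. The low-count filter would not have kept miR-326-3p without the normal diet libraries, where its counts were higher. The estimate for miR-326-3p was −1.50 with voom and −1.95 with limma on log2(RPM + 0.1), and −2.57 without fish oil ozone replicate 6. That for miR-328a-3p was −0.06 without normal diet ozone replicate 1 and −0.15 without fish oil ozone replicate 3. Neither member passed; 0% of tested miRNAs did, and 4.41% had an unadjusted p below 0.05. The median over all tested miRNAs was −0.05. At these depths the intervals, −1.45 to 0.65 and −2.61 to 0.86, still hold differences of more than 2-fold.

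Exact permutation tests over libraries on log2 CPM gave p = 0.338 on fish oil and 0.799 on the normal diet for miR-328a-3p, and exact p = 0.277 and 0.260 for miR-326-3p (two-sided). In the fish oil test of miR-326-3p, the 3 libraries at 0 counts all stand at the level set by the prior count. For the gap between the members the exact permutation p was 0.245 on the normal diet; that on fish oil is not given, since the gap is unmeasured in those 3 libraries. Adjusted over the 6 tests run, the lowest of the permutation p-values was 0.506. Across all 136 miRNAs edgeR called 0 for ozone on fish oil (0% of those tested, with 10 or 7.35% at an unadjusted p below 0.05) and 0 on the normal diet (0%, with 4 or 2.94% unadjusted). DESeq2 called 0 on fish oil, 1 on the normal diet and 0 for the interaction.

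**Figure D3:**
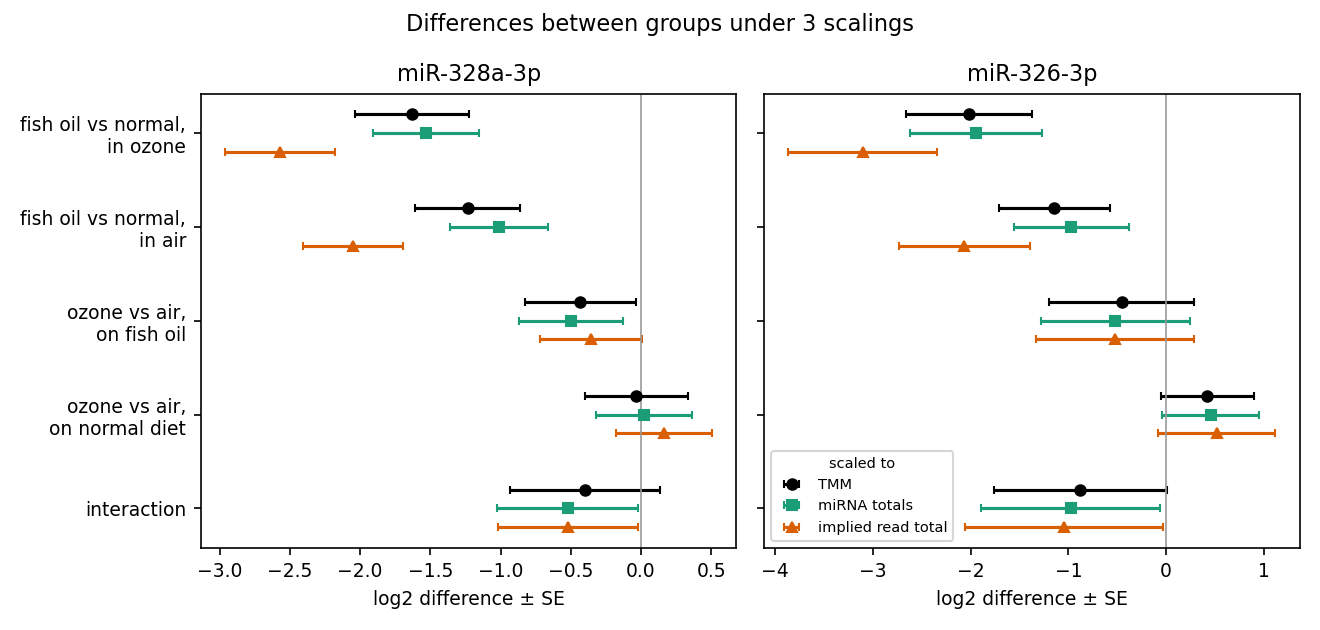
Log2 differences with their SE for miR-328a-3p (left) and miR-326-3p (right) under 3 scalings of the counts: TMM, miRNA totals and the implied read total. The diet differences lie below 0 under all 3 and lowest with the implied read total, where miR-328a-3p reaches −2.57 in ozone, while the SE bars of most ozone differences and interactions reach or nearly reach 0.

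Rats that had both fish oil and ozone can also be set against those that had neither. MiR-328a-3p was 1249 to 7709.8 CPM with fish oil and ozone, and 8290.0 to 24408 CPM on the normal diet in air, with no overlap (5.15% of tested miRNAs lay wholly lower in this comparison, and edgeR called 7.35% lower) and a log2 difference of −1.66 (SE 0.40). For miR-326-3p the log2 difference was −1.60 (SE 0.66), and fish oil ozone replicate 6, at 212 CPM, lay just above the highest normal diet air library, at 209 CPM.

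The spread of miR-328a-3p within a group holds differences between rats together with those from RNA extraction and library preparation. Its coefficient of variation was 54.6% on fish oil with ozone and 44.2% on fish oil in air, against 50.6% and 36.8% on the normal diet in ozone and air, while counting alone would give 7.83%, 6.29%, 3.27% and 3.27%. MiR-326-3p varied by 160% on fish oil with ozone, where counting alone gives 74.5%. It varied by 46.8% on fish oil in air, where counting alone gives 57.7%. Normal diet values were 44.2% with ozone and 19.8% in air, where counting alone gives 26.3% and 30.2%. In the air groups, the spread of miR-326-3p was thus no wider than its low counts give.

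The variation of miR-328a-3p among rats ran closely with that of a few other miRNAs. The 4 most like it over the 23 libraries, by Pearson's r of log2 CPM, were miR-92a-3p, of the miR-17-92 cluster (0.95, Spearman's rho 0.94), miR-191a-5p, which is common in platelets and blood cells (0.91, rho 0.94), miR-423-5p (0.87, rho 0.83) and miR-151-3p (0.86, rho 0.88). Values centred on the group means, which leave out the differences between diets, gave 0.91, 0.78, 0.88 and 0.74, where the median over the other tested miRNAs was −0.07. These are descriptions of the miRNAs picked for the highest values, and all share 1 library scaling.

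MiR-92a-3p averaged 7937 ± 3699 CPM on fish oil with ozone and 11338 ± 4175 CPM on fish oil in air, against 21470 ± 8089 and 19035 ± 6227 CPM on the normal diet in ozone and air. Within groups its r with miR-328a-3p was 0.92 in both fish oil groups, against 0.98 with ozone and 0.80 in air on the normal diet. Leaving out fish oil ozone replicate 3, the lowest library for both, r over the remaining 22 was 0.93. Without the 2 libraries farthest from the median of miR-92a-3p it was 0.91.

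At the other end stood miR-30e-5p (r −0.93, −0.85 after centring) and miR-29a-3p (r −0.83, −0.82 after centring). MiR-30e-5p averaged 8802 ± 3197 CPM on fish oil with ozone and 7539 ± 1704 CPM on fish oil in air, against 4937 ± 1206 and 5053 ± 977 CPM on the normal diet in ozone and air. Among the shares of a library's miRNA total, one can grow only as others shrink. TMM multiplies each total by a factor, here 0.779 to 1.44, so CPM do not sum to a fixed value. The part of that constraint in the opposite courses was not tested.

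The mature sequences of these partners, from the same RefSeq annotation with bases 2 to 8 in capitals, are shown to set their seeds beside those above. MiR-92a-3p and miR-191a-5p lie on the plus strand, miR-423-5p and miR-30e-5p on the minus strand.
miR-92a-3p: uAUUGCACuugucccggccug
miR-191a-5p: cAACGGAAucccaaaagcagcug
miR-423-5p: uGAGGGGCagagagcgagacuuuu
miR-30e-5p: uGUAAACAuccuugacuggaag
None of these seeds is that of miR-326-3p or miR-328b-3p, and 0 other tested miRNAs with a sequence carry either.

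**Figure D4:**
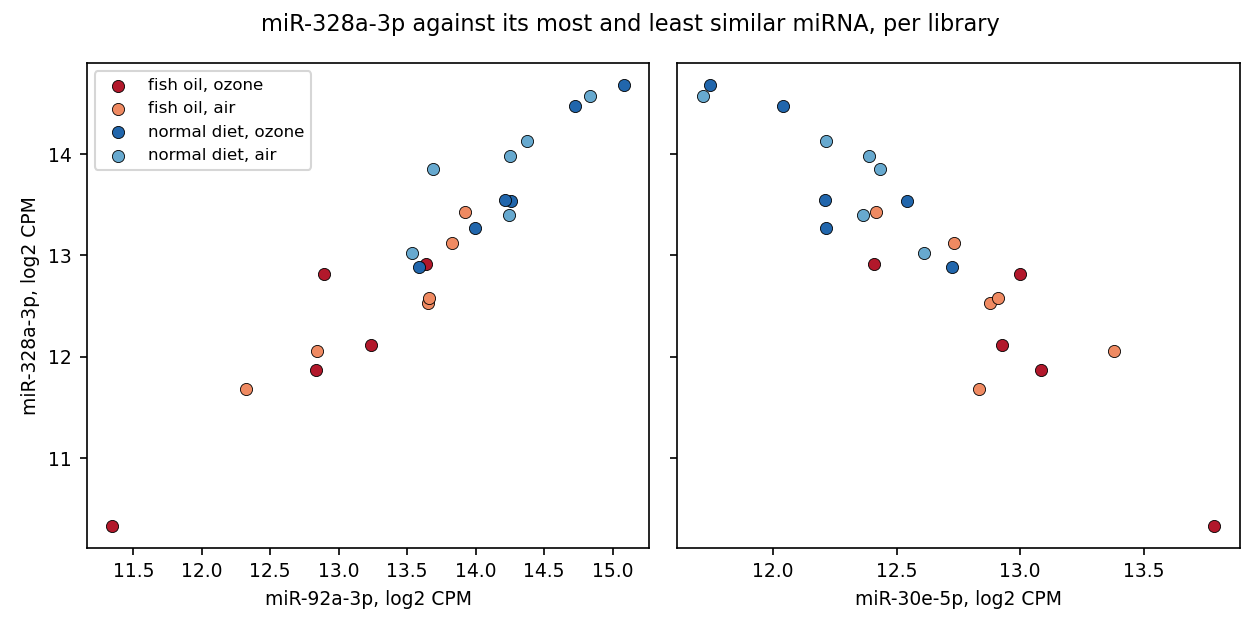
Log2 CPM of miR-328a-3p in each library against that of miR-92a-3p (left, r = 0.95) and miR-30e-5p (right, r = −0.93), the most and least similar of the tested miRNAs over 23 libraries. The lowest point of miR-328a-3p in both panels is fish oil ozone replicate 3.

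For miR-326-3p, 2 of the 4 most similar miRNAs were also among the 4 of miR-328a-3p. Its highest r were with miR-191a-5p (0.72, rho 0.71), miR-92a-3p (0.70, rho 0.66), miR-128-3p, a miRNA of neurons (0.64, rho 0.68), and miR-130b-3p (0.63, rho 0.50), and its lowest with miR-199a-3p (−0.79) and miR-30e-5p (−0.75). Values centred on the group means gave, in that order, only 0.27, 0.35, 0.10 and 0.35 for the highest, and −0.54 and −0.48 for the lowest. With miR-328a-3p, miR-326-3p had an r of 0.70 (rho 0.70) over all 23 libraries and 0.35 on values centred on the group means. Without fish oil ozone replicate 3 these were 0.61 and 0.24. Both were chosen as lower on fish oil, which fixes a shared difference between the diets in the uncentred values, and the 3 libraries without a count of miR-326-3p enter at the level set by the prior count.

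Depth was set beside both members. The r of miR-328a-3p with the log2 miRNA total was 0.60 over all libraries and 0.09 on centred values, and that of miR-326-3p was 0.49 and −0.10. With the share of miRNA counts among the reads behind the RPM, the r of miR-328a-3p was 0.13 over all libraries and −0.64 on centred values, and that of miR-326-3p was 0.32 and −0.25. The part of depth in the diet differences was not tested.

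Relatives of the members were too rare to test. MiR-328b-3p had 13 counts on fish oil with ozone and 24 on fish oil in air, against 27 and 35 on the normal diet in ozone and air. In CPM this was 74.7 ± 53.9 and 94.96 ± 56.3 on fish oil, against 69.8 ± 38.8 and 96.4 ± 61.5 on the normal diet, ranges that overlap. How reads that fit both miR-328 forms were assigned is not given in the sources used here. MiR-330-5p had 1 and 3 counts on fish oil with ozone and in air, against 3 and 1 on the normal diet, too few to set beside miR-326-3p.

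Among 14 miRNAs of the nervous system, 2 passed the low-count filter and 4 had no count. As log2 differences for fish oil averaged over exposures, miR-128-3p, the one that makes up nearly all of the list's reads, fell by 1.18 (SE 0.19, edgeR adjusted p = 5.6e-05) and miR-218a-5p rose by 1.23 (SE 0.41, edgeR adjusted p = 0.0165). MiR-218a-5p had only 158 counts in all. With the read total behind the RPM, 1 of 136 miRNAs was called higher, in place of 27. The list without miR-128-3p summed to 277 to 1151 CPM on fish oil with ozone and 464 to 803 CPM on fish oil in air, against 292 to 653 and 323 to 542 CPM on the normal diet in ozone and air. These sums overlapped between the diets. With miR-128-3p the list summed to 7507 to 24768 CPM and 8002 to 25896 CPM on fish oil, against 31642 to 41834 and 33314 to 42442 CPM on the normal diet, which do not overlap. MiR-128-3p alone is among the 1.47% of tested miRNAs with every fish oil library below every normal diet library in CPM. The part of this list in the level of miR-326-3p was not tested.

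Markers of the cells that feed serum were read beside the members. Over all tested miRNAs, fish oil averaged over exposures gave 19.9% higher and 16.9% lower. In the 10 platelet miRNAs it gave 3 higher, 2 lower and 5 not passed, with a median of +0.27 against +0.06 over all tested miRNAs. Lower were miR-191a-5p (−1.54, SE 0.22) and miR-223-3p (−0.80), and higher were miR-126a-3p (+1.06), miR-126a-5p (+0.64) and miR-221-3p (+0.45). Their summed level was 142822 to 203141 CPM on fish oil with ozone and 141929 to 233004 CPM on fish oil in air, against 277918 to 422964 and 249524 to 422997 CPM on the normal diet in ozone and air. Without miR-191a-5p the sums were 70754 to 111384 and 75612 to 104647 CPM on fish oil, against 70386 to 86161 and 65909 to 79373 CPM on the normal diet, which overlap. The direction of the list calls in these paragraphs depends on the scaling: with the read total behind the RPM, 1 of 136 miRNAs was called higher.

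Of the 7 erythrocyte miRNAs tested, 2 were higher (miR-144-5p +1.32, miR-144-3p +0.98), 3 lower (miR-92a-3p −1.09, miR-363-3p −1.09, miR-185-5p −0.80) and 2 not passed, with a median of +0.06. The shares over all tested miRNAs were 19.9% higher and 16.9% lower. The 8 miRNAs of this list in the table summed to 18438 to 31933 CPM on fish oil with ozone and 23147 to 36354 CPM on fish oil in air, against 31074 to 46090.2 and 26175 to 49709.5 CPM on the normal diet. MiR-451-5p, an abundant red cell miRNA, did not pass (+0.58, SE 0.36, edgeR adjusted p = 0.208).

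Of 7 leukocyte miRNAs tested, 1 was higher (miR-181a-5p +0.51), 1 lower (miR-146b-5p −0.66) and 5 not passed, with a median of +0.23, and of 4 liver miRNAs 1 was lower (miR-192-5p −0.62) and 3 not passed, with a median of −0.50. Both lists stand beside 19.9% higher and 16.9% lower over all tested miRNAs. Leukocyte sums, over 8 miRNAs, ran from 16663 to 28273.5 CPM on fish oil and from 17274 to 27614 CPM on the normal diet. Liver sums, over 5 miRNAs, ran from 31429.5 to 162464 CPM on fish oil and from 50629 to 192105 CPM on the normal diet. No listed miRNA of the platelet, erythrocyte, leukocyte or liver list present in the table was at 0 in every library, and their part in the members' levels was not tested. In serum, release from fewer cells of a type and less miRNA per cell cannot be told apart.

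The high G+C content of miR-326-3p was not used to choose it, but the log2 differences below come from the contrast that was. Of the 9 tested miRNAs with at least 60% G+C, 2 were lower on fish oil averaged over exposures (miR-326-3p and miR-92b-3p, −0.97), 0 higher and 7 not passed; 6 of the 9 were negative and their median was −0.09. Over all tested miRNAs 16.9% were lower and 19.9% higher. At 55% G+C and over, the median of 15 miRNAs was −0.30 with 10 negative, against +0.13 for the 54 from 45% to under 55% and +0.09 for the 56 under 45%. MiR-210-3p and miR-3574, which have the same counts, are both among the 9. Of 29 with at most 40% G+C, 7 were higher, 2 lower and 20 not passed, with a median of +0.23. Without miR-326-3p, which was chosen on this contrast, 1 of the other 8 with high G+C was lower and 5 were negative, with a median of −0.09. Over the 125 tested miRNAs with a sequence, Pearson's r between G+C and the log2 difference was −0.22 (rho −0.20), a description across miRNAs of the same libraries. The values at 55% and over and this r include miR-326-3p, and neither was computed without it.

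**Figure D5:**
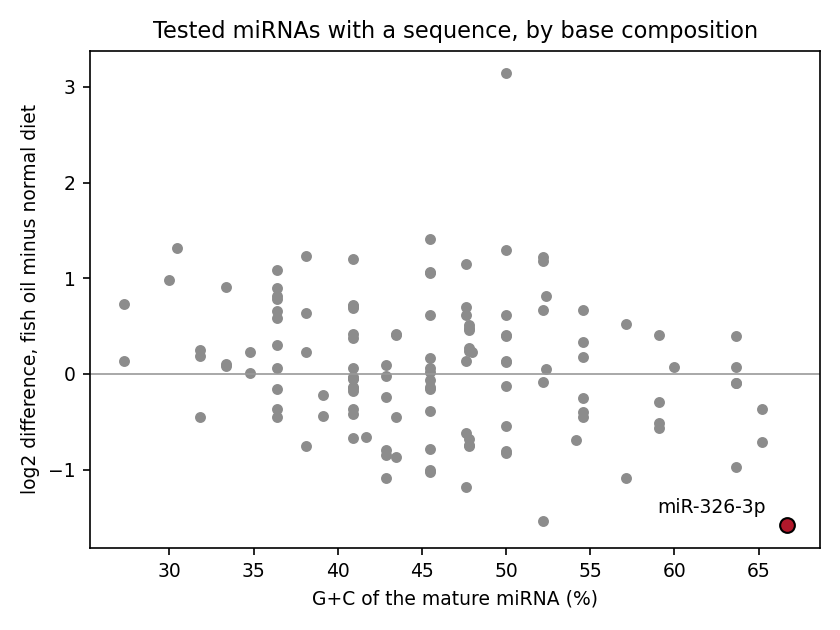
Log2 difference between fish oil and normal diet, averaged over exposures, against the G+C content of the mature miRNA for the 125 tested miRNAs with a sequence. MiR-326-3p, in red, has the highest G+C content, 66.7%, and the lowest log2 difference, −1.58, while other miRNAs above 60% lie between −0.97 and +0.39.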

How the data were processed

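Processing tools named in the submitters' processing notes are bcl2fastq, Partek and Bowtie (version 1.0.0), with rn5 as the build. Their order, the annotation, and how multiply matching reads were treated are not given there. The authors deposited expected counts per mature locus (50 of 832 loci hold fractions), which were summed per miRNA name and rounded. Their other table holds RPM, deposited with an offset of 0.0001; it matched the counts within 0.0401 reads once divided by an implied read total of 2243915 to 7729936 per library. Stop minus start equals the mature length at all 758 loci with a sequence, so one end of each printed interval lies outside the miRNA. Libraries were matched by the number in their titles. Titles give each group its own numbers, which pair no rats, and a batch following them cannot be told apart from the groups.

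Counts that passed filterByExpr (minimum count 10, minimum total 15; 136 names, 99.3% of counts) were fitted in edgeR 4.0.16 (R 4.3.3) with TMM and the robust quasi-likelihood F test, 1 mean per group, two-sided, adjusted by Benjamini-Hochberg over 136 with a threshold of 0.05. Log2 CPM used a prior count of 2. Limma 3.58.1, DESeq2 1.42.0, other scalings, no filter and leaving out each library were alternatives. Each SE is the size of the edgeR log2 difference divided by the square root of its F statistic. Near a difference of 0 this SE is unstable. For ozone averaged over diets, that of miR-326-3p was 0.34 in the main fit, 0.14 with the implied read total and 0.86 with no filter. Approximate 95% intervals use the normal distribution and this SE. The fits were tested on simulated data. Permutations used scipy 1.17.1. The members and lists were chosen with earlier results of these data known. Named miRNAs were the members, their relatives, the 4 most and 2 least similar per member, and up to 3 per list and direction. Replicates are rats, 1 library each.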

Additional observations from a re-analysis of the deposited data

Results flagged for a closer look

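In each of 16 checks (CPM and RPM of both members in each of the 4 groups) the highest and lowest library were compared with their nearest neighbour, and 2 stood apart from the rest of their group; chance flags about 1 group in 20. MiR-326-3p was at 108 CPM in normal diet air replicate 4, below the 173 to 209 CPM of the other 5 libraries, from a count of 4. MiR-326-3p was at 6.65 RPM in normal diet ozone replicate 5, above the 1.57 to 3.21 RPM of the other 5, from a count of 19; in CPM the same library, at 297, lay among its group.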

How the results depend on the processing

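The alternatives were other scalings, tools, pseudocounts and filters, fits of the compared groups alone, and leaving out each of 23 libraries; of 506 values of the members under them, 461 kept their direction and side of the threshold or moved by less than the replicate spread, 23 moved further and 22 changed sign, all of them ozone differences near 0. Both members were lower on fish oil under every setting run. They were chosen as lower in these same libraries, so that sign was largely set in advance. No ozone difference or interaction of a member passed the threshold in any setting. With the implied read total, the log2 differences of miR-326-3p were −2.07 in air, −3.11 in ozone, −2.59 averaged and −2.59 for fish oil with ozone against the normal diet in air; those of miR-328a-3p were −2.05, −2.57, −2.31 and −2.41. With limma on log2(RPM + 1), miR-328a-3p gave −2.04, −2.62, −2.33 and −2.43, and with log2(RPM + 0.1) −2.07, −2.65, −2.36 and −2.46. With log2(RPM + 0.1), miR-326-3p gave −3.79 in ozone, −2.81 averaged and −3.20 against the normal diet in air, where voom gave −2.32. The near-zero ozone differences changed sign: miR-328a-3p on the normal diet was +0.022 with miRNA totals, +0.16 with the implied total and +0.19 with either RPM offset, and miR-326-3p averaged over diets was +0.055 with log2(RPM + 1) and +0.013 with no filter, but −0.46 with voom and −0.39 with log2(RPM + 0.1). Those tools also gave miR-326-3p a larger ozone difference on fish oil (−1.21 and −1.36) and interaction (−1.50 and −1.95). The cause was not tested.

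Leaving out 1 library gave, for miR-326-3p, −3.72 to −1.63 for fish oil in ozone, −2.43 to −1.39 averaged, −3.29 to −1.21 for fish oil with ozone against the normal diet in air and −0.87 to 0.18 for ozone averaged over diets; the low ends all came without fish oil ozone replicate 6 and the high ends without replicate 4. Its ozone difference on fish oil ran from −2.15 to −0.06 and its interaction from −2.57 to −0.49 without the same replicates. For miR-328a-3p the ozone difference on the normal diet ran from −0.33 without normal diet ozone replicate 1 to 0.15 without normal diet air replicate 1, that on fish oil from −0.66 without fish oil ozone replicate 6 to −0.19 without replicate 3, that averaged over diets from −0.36 to −0.11, and the interaction from −0.63 to −0.06, the last without normal diet ozone replicate 1. The ozone difference of miR-326-3p on the normal diet ran from 0.21 without normal diet ozone replicate 1 to 0.54 without replicate 3. Calls over all miRNAs ran from 47 to 59 for fish oil averaged, 10 to 37 in ozone (lowest without fish oil ozone replicate 3, highest without replicate 6) and 1 to 14 in air (lowest without normal diet air replicate 5, highest without fish oil air replicate 3). MiR-326-3p would miss the low-count filter without normal diet ozone replicate 1, 4 or 5 or normal diet air replicate 3. Of the fits of the compared groups alone, only that of ozone on the normal diet held miR-326-3p, which missed the filter in the others. No paired analysis was possible because each group has its own animal numbers, which pair no rats across groups.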
